A study of Mus musculus with 12 samples.

Results

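The 8 genes described here encode adrenergic receptors, the cell surface receptors for noradrenaline and adrenaline. They were chosen by name (Adrb1, Adrb3, Adra1a, Adra1b, Adra1d, Adra2a, Adra2b and Adra2c), and all 8 were found among the 54134 genes of the raw count table. The list does not hold every adrenergic receptor gene of the mouse. Of the 8, 6 had enough reads to be tested, and Adra2b and Adra2c did not.

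Noradrenaline reaches white fat mainly from sympathetic nerve endings. In adipocytes, β receptors act through the stimulatory G protein and adenylyl cyclase to raise cyclic AMP, which activates protein kinase A and drives lipolysis, the breakdown of stored triglyceride. α2 receptors act through inhibitory G proteins and restrain the same pathway, whereas α1 receptors act through Gq and phospholipase C to release calcium. In the mouse, the β3 receptor is known as the main β receptor of adipocytes.

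Inguinal white adipose tissue (iWAT), a subcutaneous fat depot, was profiled by RNA-seq in 12 male C57BL/6J mice. At 8 weeks of age, 6 mice received an adeno-associated virus encoding green fluorescent protein (AAV-GFP) and 6 received one encoding Notum (AAV-Notum), a secreted enzyme that inactivates Wnt proteins. Both transgenes were driven by the liver-specific thyroxine binding globulin promoter, and the iWAT libraries do not check what the liver made or what reached the fat. All 12 mice were fed chow for 4 weeks after the injection and fasted for 4 h before the tissue was taken. Each mouse gave 1 library, and each is named by its group and its number in the labels (GFP-2011, Notum-2031).

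Libraries held 15266635 to 21618860 counted reads in the AAV-GFP group and 14711113 to 17838229 in the AAV-Notum group. All 7 adipocyte markers had reads in every mouse, and together they made up 30282 to 70999.7 CPM (the reads of a gene scaled to a common, normalized library size). Markers of some other cell types differed widely between mice of 1 group. The summed level of 15 lymphoid markers was 10.6 CPM in mouse GFP-2014, 16.3 CPM in mouse GFP-2011 and 331 CPM in mouse GFP-2012, against 1239 to 1742 CPM in the other 3 AAV-GFP mice and 553 to 2383 CPM in the 6 AAV-Notum mice. In mouse GFP-2014 the 15 genes still had 3 to 33 reads each. The summed level of 7 hepatocyte markers was 46.7 to 5118 CPM in AAV-GFP mice and 21.6 to 733 CPM in AAV-Notum mice. That of 8 skeletal muscle markers was 9.30 to 795 CPM and 9.50 to 3739 CPM, the highest in mouse Notum-2042. The RNA of mouse GFP-2012 was isolated on another date than that of the other 11 mice. A library of whole tissue does not tell fewer cells of a type from less RNA per cell. The receptor results are also given without mice GFP-2011 and GFP-2014, without these and GFP-2012, and with the lymphoid markers as a covariate.

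None of the receptor genes passed the test between AAV-Notum and AAV-GFP mice. With edgeR's quasi-likelihood test and Benjamini-Hochberg adjustment over 15585 genes, 0 of 6 had an adjusted p under 0.05, where 8 of all genes tested had (0.0513%). DESeq2 also gave 0 of 6, where it called 436 of the 16401 genes to which it gave an adjusted p (2.66%). Before adjustment, 1 of 6 had a p under 0.05 and was lower in the AAV-Notum group, against 9.54% of all genes, and 0 of 6 were higher, against 4.64%. No receptor gene separated the groups without overlap, which 1.09% of all genes did. The log2 fold changes of the 6 genes had a median of -0.46, and 5 of the 6 were below 0, whereas the median over all genes was 0.0077 and 48.8% of genes were below 0.

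**Figure D1:**
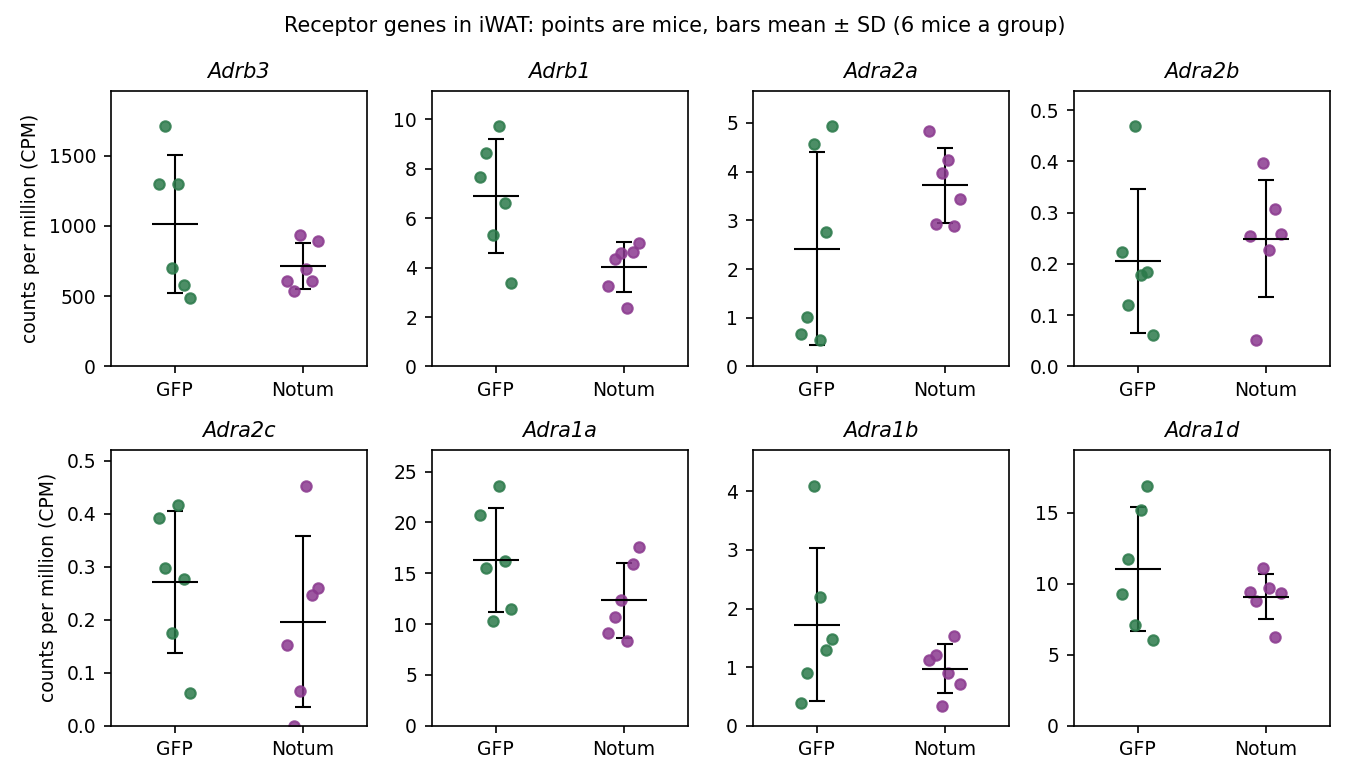
Each panel plots 1 receptor gene in CPM on its own linear axis from 0, with 1 point for each mouse and the mean ± SD of the 6 mice of each group. The groups overlap in all 8 panels. Adrb3 reaches 1708 CPM, whereas Adra2b and Adra2c stay below 0.5 CPM.

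Of the β receptors, Adrb3, which encodes the β3 receptor, was by far the most abundant member. Its gene (ENSMUSG00000031489) lies on the minus strand of GRCm38 (mm10) at chr8:27225776-27250616. In AAV-GFP mice its lowest level was 489.6 CPM, the median 1001 CPM and the highest 1708 CPM. In AAV-Notum mice the lowest was 539 CPM, the median 650.2 CPM and the highest 935 CPM. The AAV-GFP mice were the more spread, with 3 above every AAV-Notum mouse, 1 below every one and 2 in between. The means were 1013 ± 491 CPM (SD of 6 mice) and 712 ± 164 CPM (SD of 6 mice), and the log2 fold change was -0.51 (standard error, SE, 0.30, 95% interval -1.17 to 0.15, edgeR adjusted p = 0.433). The exact permutation test, two-sided over every way to divide the mice into groups of 6, gave p = 0.262 for Adrb3. Without mouse GFP-2012, the one with the highest level and another date of RNA isolation, the log2 fold change of Adrb3 was -0.30.

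Adrb1 encodes the β1 receptor, best known as the main β receptor of the heart, and it was the receptor gene with the smallest p. It lies on the plus strand at chr19:56722199-56733113 (ENSMUSG00000035283) and had 42 to 163 reads in a mouse. Its level ran from 3.39 CPM through a median of 7.14 CPM to 9.71 CPM in AAV-GFP mice. In AAV-Notum mice it ran from 2.38 CPM through a median of 4.46 CPM to 4.98 CPM. Each of the 6 AAV-Notum mice lay under the mean of the AAV-GFP group, and 5 of 6 AAV-GFP mice were above every AAV-Notum mouse, so that only mouse GFP-2022 kept the groups from separating. The means of Adrb1 were 6.89 ± 2.30 CPM (SD of 6 mice) and 4.02 ± 0.999 CPM (SD of 6 mice). The log2 fold change was -0.78 (SE 0.26, 95% interval -1.33 to -0.22), and the exact permutation test gave p = 0.0281. The edgeR p of 0.0104 was 717th in rank of 15585 genes, and after adjustment it was 0.224. With DESeq2 the adjusted p was 0.0834, and over 21 alternatives the adjusted p of Adrb1 ran from 0.0637 to 0.9998.

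α2 receptors were low. Adra2a encodes the α2A receptor (ENSMUSG00000033717, plus strand, chr19:54044151-54048982, a single exon) and had 9 to 95 reads in a mouse. In AAV-GFP mice the lowest level was 0.536 CPM, the median 1.89 CPM and the highest 4.93 CPM. In AAV-Notum mice the lowest was 2.89 CPM, the median 3.70 CPM and the highest 4.83 CPM. The AAV-Notum mice lay close together, whereas 4 AAV-GFP mice lay below all of them and 1 above. Adra2a was the only tested member with a positive log2 fold change, 0.62, but its 95% interval ran from -0.47 to 1.71 (SE 0.50, edgeR adjusted p = 0.519, exact permutation p = 0.128).

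Adra2b and Adra2c, which encode the α2B and α2C receptors, were close to the limit of detection. Adra2b (ENSMUSG00000058620, plus strand, chr2:127363208-127367221) had 1 to 8 reads in a mouse. Its 22 reads over the AAV-GFP mice correspond to 0.207 CPM (exact Poisson 95% interval 0.130 to 0.313), and its 25 reads over the AAV-Notum mice to 0.242 CPM (0.157 to 0.357). Adra2c (ENSMUSG00000045318, plus strand, chr5:35278319-35281763) had 29 reads over the AAV-GFP mice, or 0.273 CPM (0.183 to 0.391), and 20 over the AAV-Notum mice, or 0.194 CPM (0.118 to 0.299). In mouse Notum-2032 there were 0 reads of Adra2c, which allows up to 0.157 CPM. For both genes the intervals overlap, and a difference between the groups was not detectable at this depth (exact permutation p = 0.528 for Adra2b and 0.344 for Adra2c). These intervals cover counting error only.

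The promoter windows of the 5 members found in the RefSeq table of GRCm38.p6 (6 windows, 250 bases before to 50 bases after a transcript start) were searched for letters of known promoter elements, among them those that respond to cyclic AMP or to Wnt signalling. Adrb1 and Adra2a are shown because the former had the smallest p and the latter was the only tested member with a positive fold change. Capitals mark TGACG, the core of the cyclic AMP response element TGACGTCA, and the GC box GGGCGG, each on either strand (the latter as CCGCCC where it is on the other).
Adrb1: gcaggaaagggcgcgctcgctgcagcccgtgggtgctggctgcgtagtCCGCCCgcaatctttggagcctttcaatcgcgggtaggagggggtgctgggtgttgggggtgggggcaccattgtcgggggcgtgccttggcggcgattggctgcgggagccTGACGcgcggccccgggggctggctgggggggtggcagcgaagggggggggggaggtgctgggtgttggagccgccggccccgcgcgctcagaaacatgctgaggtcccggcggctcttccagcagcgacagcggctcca
Adra2a: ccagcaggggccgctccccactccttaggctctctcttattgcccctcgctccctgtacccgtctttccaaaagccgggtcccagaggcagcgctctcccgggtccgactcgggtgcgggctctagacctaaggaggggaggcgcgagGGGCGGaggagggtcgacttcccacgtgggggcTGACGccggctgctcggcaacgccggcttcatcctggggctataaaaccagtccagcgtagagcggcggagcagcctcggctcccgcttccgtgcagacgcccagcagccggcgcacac
The Adrb1 window is the plus strand of chr19:56721867-56722166, which ends before the gene model of GENCODE begins. The Adra2a window is the plus strand of chr19:54045009-54045308, which lies inside the longer gene model of GENCODE. Distances are from the RefSeq start. TGACG begins at -90 from the start in Adrb1 and at -69 in Adra2a. It was in 2 of the 6 windows and in 20.8% of 32851 windows of all genes. The GC box was in 4 of 6 and in 35.7% of all. The whole element TGACGTCA, in 1.79% of all windows, and the TCF/LEF letters ATCAAAG, in 3.73%, both searched on either strand, were in 0 of 6. The AP-1 letters TGANTCA were in 1 of 6, a window of Adra1b, and in 7.81% of all. The nuclear receptor letters AGGTCA were in 1 of 6 (Adra2c) and in 16.3% of all, and TATAAA in 1 of 6 (Adra2a) and in 13.6%. With 72.3% and 68.7% G or C, the Adrb1 and Adra2a windows were above the median of 52.7%. These are matches of letters only.

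Among the α1 receptors, Adra1a (ENSMUSG00000045875, plus strand, chr14:66635251-66771168), which encodes the α1A receptor, had 148 to 396 reads in a mouse. Its level was 10.3 to 23.6 CPM in AAV-GFP mice (median 15.8 CPM) and 8.37 to 17.5 CPM in AAV-Notum mice (median 11.6 CPM). The groups overlapped over most of their range, with 2 AAV-Notum mice under the lowest AAV-GFP one. The log2 fold change of Adra1a was -0.40 (SE 0.24, 95% interval -0.92 to 0.12, edgeR adjusted p = 0.433, exact permutation p = 0.156).

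Adra1b encodes the α1B receptor, which is known to be the major α1 receptor of the liver. The gene (ENSMUSG00000050541) lies on the minus strand at chr11:43774606-43901210. It had 0.392 to 4.10 CPM in AAV-GFP mice (median 1.39 CPM) and 0.331 to 1.54 CPM in AAV-Notum mice (median 1.01 CPM). The groups overlapped, with 2 AAV-GFP mice above every AAV-Notum mouse and 4 within their range. Its highest value belonged to mouse GFP-2013, which had the highest hepatocyte marker score of the 12, a mean of 7.99 on the log2 CPM scale. Next came mouse GFP-2014, with 2.21 CPM of Adra1b and a score of 6.16, and then mouse Notum-2041, with 1.54 CPM and a score of 5.32. At the other end, the 3 lowest Adra1b values, 0.331 to 0.712 CPM, belonged to mice with scores of -0.30 to 0.85. The mice with the 3 highest Adra1b values were thus the 3 with the highest scores, whereas mouse Notum-2031 had 1.12 CPM at a score of -0.01. The part of liver transcripts in the Adra1b level was not tested. The log2 fold change was -0.82 (SE 0.49, 95% interval -1.89 to 0.25, edgeR adjusted p = 0.434, exact permutation p = 0.279), and without mouse GFP-2013 it was -0.36.

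Adra1d encodes the α1D receptor, known from vascular smooth muscle, and was the most abundant α1 gene per length. It lies on the minus strand at chr2:131545850-131562283 (ENSMUSG00000027335) and had 98 to 366 reads in a mouse. AAV-GFP mice had 6.03 to 16.9 CPM (median 10.5 CPM) and AAV-Notum mice 6.28 to 11.1 CPM (median 9.36 CPM). The AAV-Notum range lay wholly inside the AAV-GFP range. The log2 fold change was -0.28 (SE 0.25, 95% interval -0.82 to 0.25, edgeR adjusted p = 0.545, exact permutation p = 0.457), and without mouse GFP-2021 it was -0.12. The mean log2 CPM of 8 smooth muscle and pericyte markers was 5.11 to 5.57 in AAV-GFP mice and 4.93 to 5.42 in AAV-Notum mice. Before adjustment 3 of the 8 were lower in AAV-Notum mice, where 9.54% of all genes were. The part of these cells in the Adra1d level was not tested.

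The tested receptor genes varied more among AAV-GFP mice than among AAV-Notum mice. The SD of log2 CPM was larger in the AAV-GFP group for all 6 genes, with a median of 0.66 against 0.36. Over all genes tested it was larger in that group for 63.9%, with medians of 0.30 and 0.27. The widest of the 6 was Adra2a, with an SD of 1.31 among AAV-GFP mice and 0.29 among AAV-Notum mice on the log2 scale.

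The same AAV-GFP mice set several of these ranges. Mice GFP-2014, GFP-2011 and GFP-2012, those with the fewest lymphoid transcripts, had the 3 highest Adrb3 levels of the 12 mice, at 1299, 1301 and 1708 CPM. They also had the 3 highest Adrb1 levels, at 9.71, 7.68 and 8.63 CPM, and the 3 lowest Adra2a levels, at 0.536, 0.673 and 1.01 CPM. The other 3 AAV-GFP mice, whose lymphoid scores lay within the range of the AAV-Notum mice, had 489.6 to 702 CPM of Adrb3 and 2.77 to 4.93 CPM of Adra2a. Among AAV-GFP mice, Adra2a was thus high where lymphoid transcripts were high, and Adrb3 was low there. The same 3 mice also had the highest adipocyte marker scores of the AAV-GFP group, 12.05, 12.01 and 11.79 (mean log2 CPM) against 10.87 to 11.67 in the other 3. They had the 3 highest endothelial scores of the 12 mice too, 6.46 to 6.77 against 5.84 to 6.42. Before adjustment, 3 of 7 endothelial, 3 of 8 adipose progenitor and 3 of 8 smooth muscle and pericyte markers were lower in AAV-Notum mice. So were 2 of 7 hepatocyte and 1 of 9 macrophage markers, where 9.54% of all genes were. Of 5 beige or brown adipocyte markers 1 was higher, where 4.64% of all genes were. The RNA integrity number was 5.7 in mouse GFP-2011, the lowest of the 12, and 6.6 to 7.6 in the other 11.

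**Figure D2:**
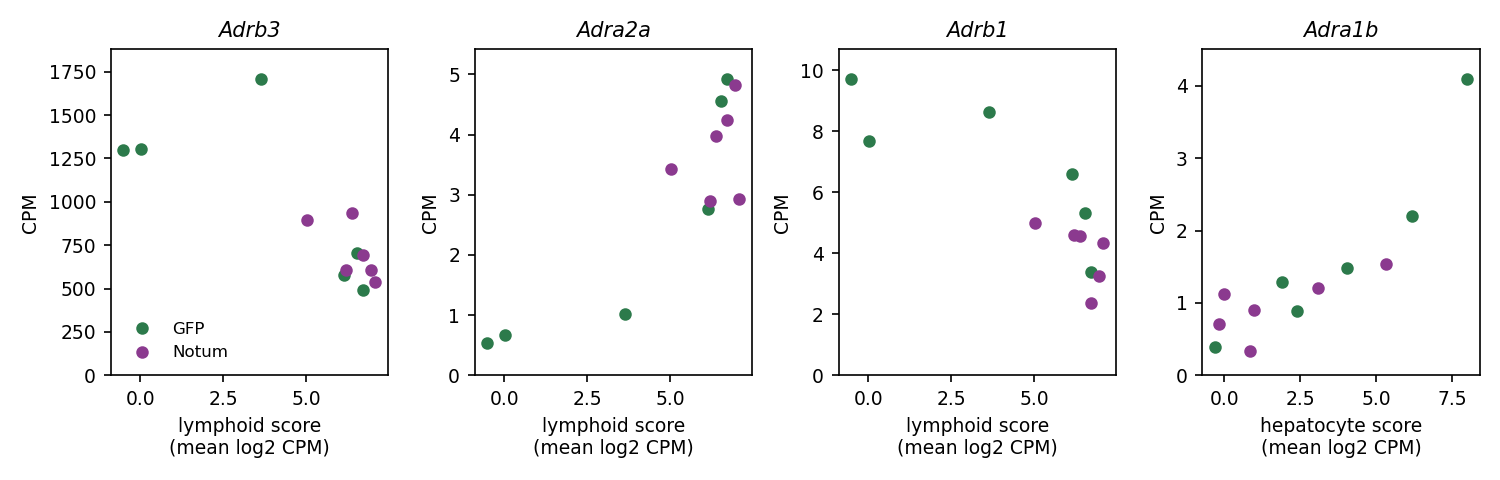
Each point is a mouse, with a receptor gene in CPM on the vertical axis and a marker score (the mean log2 CPM of the lymphoid or hepatocyte markers) on the horizontal axis. Green points are AAV-GFP and purple points AAV-Notum. The 3 AAV-GFP mice with lymphoid scores of -0.52, 0.02 and 3.64 have the highest Adrb3 and Adrb1 and the lowest Adra2a, and Adra1b is highest, at 4.10 CPM, at a hepatocyte score of 7.99.

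When the lymphoid marker score was added to the model as a covariate, the group difference of Adrb3 was 0.04 on the log2 scale (95% interval -0.52 to 0.59), that of Adra1a was 0.00046 (-0.40 to 0.41) and that of Adra2a was 0.03 (-0.48 to 0.55). Adrb1 kept a negative value of -0.40 (-0.91 to 0.10, edgeR unadjusted p = 0.107). Adra1b became more negative, at -1.10 (-2.21 to 0.02), and Adra1d was at -0.14 (-0.74 to 0.47). Without mice GFP-2011 and GFP-2014, Adrb3 was at -0.29, Adra2a at 0.16, Adra1a at -0.12, Adra1b at -0.99 and Adra1d at -0.21. Adrb1 was then at -0.58 (-1.19 to 0.03, edgeR unadjusted p = 0.0618), and 0 of 6 members had an unadjusted p under 0.05. Without mouse GFP-2012 as well, Adrb3 was at 0.26 (-0.21 to 0.74) and Adra2a at -0.13 (-0.68 to 0.41), so that both turned in direction. Adrb1 was then at -0.35 (-0.98 to 0.27), Adra1a at -0.05, Adra1d at -0.15 and Adra1b at -1.23 (-2.27 to -0.19, edgeR unadjusted p = 0.0252, adjusted 0.879). With the RNA integrity number in the model Adrb1 was at -0.70 (-1.32 to -0.08, edgeR unadjusted p = 0.0310), Adrb3 at -0.34, Adra1a at -0.31, Adra1d at -0.29, Adra1b at -0.93 and Adra2a at 0.48. With the adipocyte marker score Adrb1 was at -0.55 (-0.96 to -0.14, edgeR unadjusted p = 0.0121), Adrb3 at -0.23, Adra1a at -0.20, Adra1d at -0.11, Adra1b at -0.98 and Adra2a at 0.65.

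**Figure D3:**
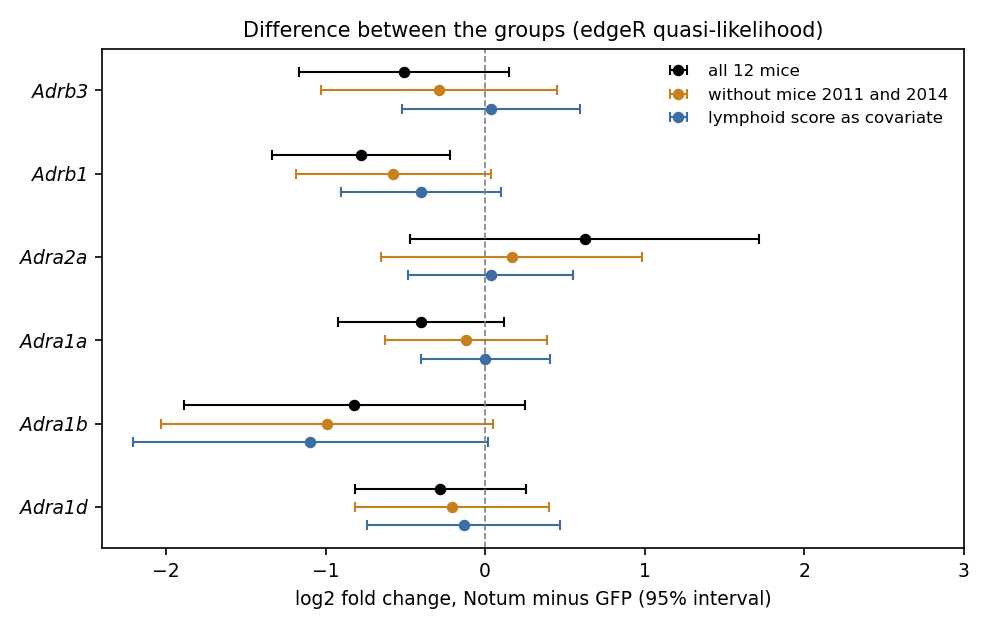
For each tested receptor gene, points give the log2 fold change of AAV-Notum over AAV-GFP from edgeR and bars its 95% interval, with all 12 mice in black, without mice GFP-2011 and GFP-2014 in orange, and with the lymphoid marker score added to the model in blue. With all mice, the interval of Adrb1 (-1.33 to -0.22) is the only black one that does not cross 0. Neither of the other settings leaves any interval clear of 0.

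To compare levels between genes, CPM were divided by the length of each gene's exons in kilobases. The mean over the 12 mice was 256 CPM per kilobase for Adrb3, 5.30 for Adra1d, 1.64 for Adra1a, 1.61 for Adrb1, 0.634 for Adra2a, 0.398 for Adra1b, 0.0677 for Adra2c and 0.0567 for Adra2b. Neighbours in this order were compared within each mouse by a two-sided exact sign-flip permutation test, with Benjamini-Hochberg adjustment over the 7 pairs. Adrb3 was 46.5-fold above Adra1d in the geometric mean, and Adra1d 3.24-fold above Adra1a, each in 12 of 12 mice (exact p = 0.000488, the smallest that 12 mice allow, adjusted 0.00114). Adra1a and Adrb1 did not differ beyond their spread (1.04-fold, 7 of 12 mice, exact p = 0.557). Adrb1 was 2.88-fold above Adra2a in the geometric mean of all mice, and above it in 9 of 12 (exact p = 0.00391, adjusted 0.00684). The gap was widest in mice GFP-2011, GFP-2012 and GFP-2014, with 2.27, 2.55 and 2.87 CPM per kilobase of Adrb1 against 0.139, 0.2095 and 0.111 of Adra2a. In the other mice Adrb1 was 0.703 to 1.95 and Adra2a 0.573 to 1.02. Adra2a and Adra1b did not differ beyond their spread either (1.57-fold, 9 of 12 mice, exact p = 0.127), nor did Adra2c and Adra2b (7 of 12 mice, exact p = 0.763). Adra1b was above Adra2c in 12 of 12 mice (5.51-fold). With the length of the transcript that has the longest coding sequence, the ranks of the means were the same, but the distances were not. Adrb3 then had a mean of 646 CPM per kilobase and stood 6.88 above Adra1d on the log2 scale, against 5.54 by exon length. Adra1d stood 0.67 above Adra1a, against 1.70, and Adra1a stood 0.89 above Adrb1 (exact p = 0.000488). Within the groups, the means of 3 pairs changed places. Adrb1 was above Adra1a, Adra1b above Adra2a and Adra2c above Adra2b in AAV-GFP mice, and each pair was the other way round in AAV-Notum mice.

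**Figure D4:**
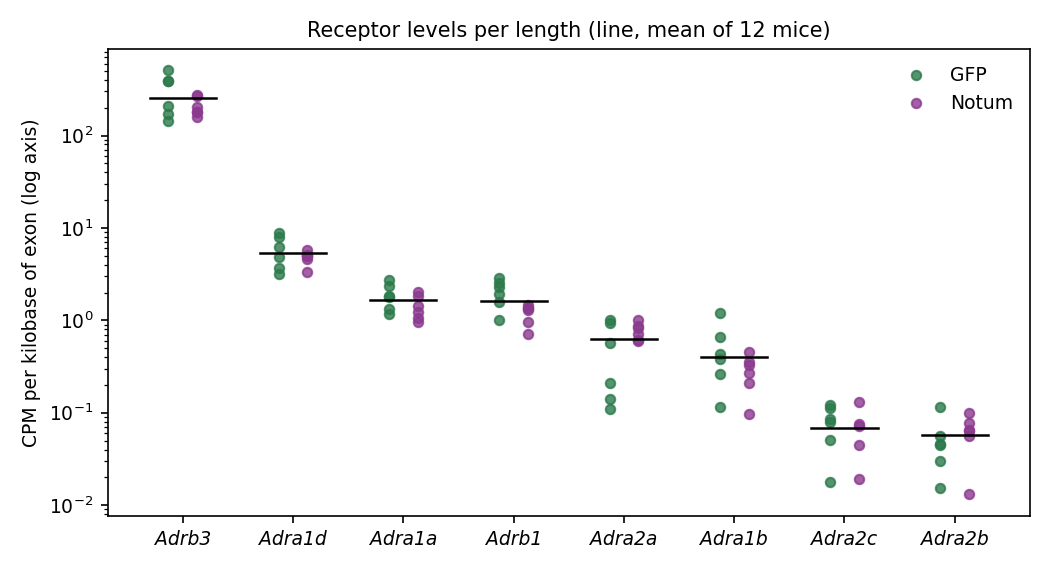
Levels of the 8 receptor genes in CPM per kilobase of exon on a log axis, 1 point for each mouse (green AAV-GFP, purple AAV-Notum), with a line at the mean of the 12 mice. By exon length Adrb3, at 256, stands 46.5-fold above the next gene in the geometric mean, and Adra2b and Adra2c lie at 0.0567 and 0.0677. The AAV-Notum mouse with 0 reads of Adra2c is not drawn.

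By this measure Adrb3 made up 92.6% to 97.9% of the summed level of the 8 genes in AAV-GFP mice and 95.2% to 96.6% in AAV-Notum mice. The means, 95.9% ± 1.89 (SD of 6 mice) and 96.0% ± 0.578 (SD of 6 mice), differed by 0.060 percentage points (exact permutation p = 0.959). Of the level without Adrb3, Adra1d was the largest share in every mouse, with a mean of 52.1% in AAV-GFP and 55.7% in AAV-Notum mice. Adra1a made up 17.4% and 16.5%. By transcript length Adra1a made up 29.1% and 28.0% and Adra1d 43.2% and 47.0%, and Adra1d was then the largest share in 11 of 12 mice, all but Notum-2041. Adrb1 made up 18.7% ± 3.92 (SD of 6 mice) in AAV-GFP mice and 13.9% ± 3.30 (SD of 6 mice) in AAV-Notum mice, a difference of -4.77 percentage points (exact permutation p = 0.0476). Without mice GFP-2011, GFP-2012 and GFP-2014 it was -1.57 (exact permutation p = 0.476). The p over all mice was the smallest of 17 shares tested and was 0.810 after Benjamini-Hochberg adjustment over them. It was also above 0.05 without any 1 of mice GFP-2011, GFP-2012, GFP-2013, GFP-2014, Notum-2031, Notum-2033, Notum-2034 and Notum-2042, with p up to 0.0996 (exact permutation test). The α2 receptors together made up 6.78% and 10.4% of the level without Adrb3 (exact permutation p = 0.177).

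**Figure D5:**
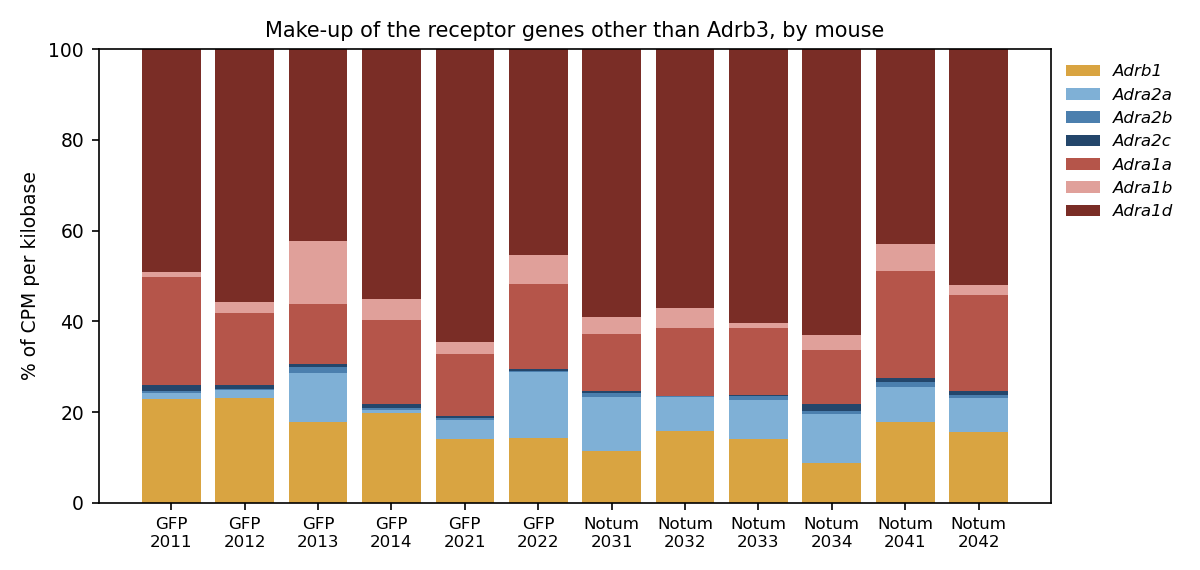
Stacked bars give, for each of the 12 mice, the percentage that each receptor gene other than Adrb3 makes of their summed CPM per kilobase. By exon length Adra1d is the largest share in every mouse, with means of 52.1% and 55.7% in the AAV-GFP and AAV-Notum groups, and the Adra2a share runs from 0.765% to 14.6% among AAV-GFP mice.

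The balance of β and α2 receptors is a common way to describe fat cells. The ratio of Adrb3 to Adra2a per kilobase was 142 to 3467 in AAV-GFP mice and 181 to 373 in AAV-Notum mice. In mice GFP-2011, GFP-2012 and GFP-2014 it was 2770, 2415 and 3467, above every other mouse, and in the other 3 it was 142 to 299.9. On the log2 scale the ratio was 9.60 ± 2.09 (SD of 6 mice) and 8.09 ± 0.38 (SD of 6 mice), a difference of -1.51 (exact permutation p = 0.158, and 0.199 after adjustment over the 3 ratios tested). Without mice GFP-2011 and GFP-2014 it was -0.51 (exact permutation p = 0.681), and without mouse GFP-2012 as well it turned to 0.37 (exact permutation p = 0.274). Without mouse GFP-2022 the ratio of Adrb3 to Adra2a differed by -1.995 (exact permutation p = 0.0433). The ratio of Adrb3 to Adrb1 differed by 0.35 (exact permutation p = 0.199), and that of summed β to summed α2 by -1.10 (exact permutation p = 0.162). Without mice GFP-2011, GFP-2012 and GFP-2014 the last of these turned to 0.35 (exact permutation p = 0.250).

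Adrb3 and Adra1d can carry reads of another gene. The exons of Adrb3 share 839 bases with the antisense gene Gm45470, which had 92 to 220 reads in a mouse against 7950 to 28687 for Adrb3. Those of Adra1d share 147 bases with the antisense gene Gm14285, which had 0 to 8 reads. Whether the counting used strand is not given in the sources used here. The reads behind the normalized table came to 87.8% of the raw reads for Adrb3 and 92.1% for Adra1d, and from them the log2 fold changes were -0.51 and -0.28, as from the raw table.

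The members varied together in part. After each group's mean was subtracted, Pearson's r of log2 CPM over the 12 mice was 0.82 between Adrb1 and Adra1a and 0.69 between Adrb3 and Adrb1. Between Adra2a and Adrb3 it was -0.77, between Adra2a and Adrb1 -0.78, and between Adra2a and Adra1a -0.75. Within each group alone, Adra2a with Adrb3 was at -0.88 in AAV-GFP mice and 0.26 in AAV-Notum mice, and Adrb3 with Adrb1 at 0.85 and 0.27. Adrb1 with Adra1a was at 0.80 and 0.86. These values are descriptions, since the mice also share their differences in cell type markers.

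By the same measure, the genes most like Adrb3 were Ctdspl (r = 0.97), Ccnl2 (0.96) and St6galnac5 (0.96). Those most like Adrb1 were Zfp810 (0.96), Fan1 (0.95) and Zfp2 (0.94), of which the first and the last encode zinc finger proteins. Among the genes most like Adra1a were Plcb1 (0.98), which encodes a phospholipase C that Gq activates, and Agtpbp1 (0.97). Adra2a was most like Dpp10 (0.97), Cacna1b (0.97) and Gal3st2 (0.97), each of which averaged under 4 CPM. Among AAV-Notum mice alone, where Adra2a varied little, these 3 values were 0.74, 0.63 and 0.57. Adra1b was most like Ddc (0.93) and Cxadr (0.92). Adra1d was most like Mycl (0.91), Rhob (0.91) and Micall1 (0.90), and with Rhob the value was 0.998 in AAV-GFP mice and 0.47 in AAV-Notum mice.

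Around the receptors, 9 lists of 87 genes covered the synthesis and clearance of catecholamines and the steps from G proteins to lipolysis, and 79 of the 87 genes could be tested. With edgeR, 0 had an adjusted p under 0.05. Before adjustment, 8 were lower in AAV-Notum mice with a p under 0.05, or 10.1% of those tested against 9.54% of all genes, and 0 were higher, against 4.64%. DESeq2 called 1 of the 79, Per1, against 2.66% of all genes.

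Of the G proteins, 1 of 8 tested was lower before adjustment (9.54% of all genes) and 0 were higher (4.64%), with a median log2 fold change of -0.22. Gnas, the stimulatory subunit through which β receptors act, had 975 ± 197 CPM (SD of 6 mice) and 841 ± 85.9 CPM (SD of 6 mice). Gnai2, an inhibitory subunit used by α2 receptors, had 345 and 367 CPM. Gnai1, another inhibitory subunit, had 249 ± 97.3 CPM (SD of 6 mice) and 149 ± 26.9 CPM (SD of 6 mice), a log2 fold change of -0.75 (SE 0.25, edgeR adjusted p = 0.224).

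Among the adenylyl cyclases, which make cyclic AMP, 1 of 8 tested was lower before adjustment, where 9.54% of all genes were, and the median log2 fold change was -0.16. Adcy6 had 320.4 and 279 CPM in AAV-GFP and AAV-Notum mice, and Adcy5 had 241 and 223 CPM. Adcy4 was the 1 with a p under 0.05, at 39.0 and 25.1 CPM (log2 fold change -0.63, edgeR adjusted p = 0.214). None of 9 protein kinase A subunits and inhibitors had an unadjusted p under 0.05 in edgeR, where 9.54% of all genes were lower and 4.64% higher. Prkar2b, a regulatory subunit, had 735 and 661 CPM, while Prkar1a had 288 and 272 CPM.

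The cyclic AMP phosphodiesterases, which end the signal, had 4 of 15 tested lower before adjustment (9.54% of all genes) and 0 higher (4.64%). Their median log2 fold change was -0.07. Pde4d was at 30.3 and 22.1 CPM (log2 fold change -0.46, edgeR adjusted p = 0.166). Pde1a, Pde3a and Pde7b had log2 fold changes of -0.49, -0.34 and -0.57. Pde3b, the most abundant and the enzyme through which insulin restrains lipolysis, had 646 and 488 CPM, with a 95% interval of its log2 fold change of -0.84 to 0.04, and Pde7a had 60.4 and 67.4 CPM.

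Receptor kinases and arrestins switch receptors off. Of 7 tested, 5 had a positive log2 fold change, where 48.8% of all genes had a negative one, and the median was 0.47. In edgeR 0 had an unadjusted p under 0.05, where 9.54% of all genes were lower and 4.64% higher. Grk2 had 165 and 235 CPM (95% interval of the log2 fold change -0.15 to 1.17), and Grk6 had 115 and 170 CPM with an interval of -0.21 to 1.32. Of 11 genes of phospholipase C and calcium release, through which α1 receptors act, 0 had an unadjusted p under 0.05 in edgeR, against the same shares of all genes. The inositol trisphosphate receptors Itpr1 (89.4 and 93.3 CPM) and Itpr2 (78.8 and 84.1 CPM) were close between the groups.

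The 6 genes of the lipolysis machinery were all below 0 in direction, where 48.8% of all genes were, and their median log2 fold change was -0.30. In edgeR 0 had an unadjusted p under 0.05, where 9.54% of all genes were lower and 4.64% higher. Mice GFP-2011, GFP-2012 and GFP-2014 had the highest adipocyte marker scores of the AAV-GFP group, whose part in these levels was not tested. Pnpla2, the triglyceride lipase, had 3262 ± 948 CPM (SD of 6 mice) in AAV-GFP mice and 2590.3 ± 669.6 CPM (SD of 6 mice) in AAV-Notum mice, with a 95% interval of the log2 fold change of -0.84 to 0.17. Lipe, the hormone-sensitive lipase that protein kinase A phosphorylates, had 2438 and 2028 CPM (-0.73 to 0.20).

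Of 10 genes known to be induced by cyclic AMP, 6 had a positive log2 fold change and 4 a negative one, where 48.8% of all genes were below 0. Their median was 0.10, and the values ran from -0.73 to 1.99. Before adjustment 1 of the 10 was lower (9.54% of all genes) and 0 were higher (4.64%). Per1, a clock gene that cyclic AMP induces acutely, was lower before adjustment, at 158 ± 32.3 CPM (SD of 6 mice) and 95.2 ± 25.9 CPM (SD of 6 mice). Its log2 fold change was -0.73 (SE 0.19, edgeR adjusted p = 0.149 and 0.0217 from DESeq2), and 5 of 6 AAV-Notum mice lay under the lowest AAV-GFP one (exact permutation p = 0.00649). Sik1 had 49.5 and 38.8 CPM. Per1 and Sik1 were the 2 most abundant genes of the list, and both had a negative log2 fold change, unlike most of it. Of 10 genes of catecholamine synthesis and clearance, 5 were tested, and the 5 that were not were Dbh, Pnmt, Slc18a2, Slc6a2 and Th. Of the 5 tested, 1 was lower before adjustment (9.54% of all genes) and 0 were higher (4.64%). Slc22a3, a transporter that takes up catecholamines, was at 87.6 and 58.8 CPM (log2 fold change -0.58, edgeR adjusted p = 0.312). Maob, which degrades amines, had 99.6 and 84.0 CPM.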

How the data were processed

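RNA-seq of iWAT from 12 mice was used, grouped by their labels. Libraries of the TruSeq kind were made by the authors, who sequenced 50 bp single-end reads, and mapped them with STAR 2.3.1 to mm10, as the submitters' processing notes also say. The deposited raw table holds counts of reads per gene, not normalized. The deposited normalized table holds log2 values of the authors (reads divided by a size factor, plus 1), from which 100% of values gave whole reads (within 0.01). The counting program and its annotation are not given in the sources used here.

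Raw counts were analysed with edgeR 4.0.16 in R 4.3.3 (filterByExpr, minimum count 10 and total 15; TMM; glmQLFit; two-sided quasi-likelihood test; Benjamini-Hochberg over 15585 genes; threshold 0.05). P-values measure the spread between mice, since each library is labelled as a mouse of its own. Log2 CPM carried a prior count of 2. Exact permutation tests used every way to divide the mice into groups of 6. The exact permutation p can go no lower than 0.00216. Within-mouse ratios for the order of levels had 0.5 reads added. Gene positions and exon lengths came from GENCODE vM21, and promoters from RefSeq. The fits were tested on simulated data. Python 3.11.15 with matplotlib 3.10.9 drew the figures.

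The receptor genes and the pathway and marker lists were chosen with earlier results of these data known. The genes named are every receptor gene, the 2 most abundant genes of each pathway list with any of an adjusted p under 0.05 and the smallest unadjusted p if under 0.05, and the 3 genes most correlated with each tested receptor gene, of which some are not reported here. Pde1a, Pde3a and Pde7b were named with their values in view. The settings tried besides were DESeq2 1.42.0, RLE in place of TMM, a minimum of 1 count in all, the RNA integrity number or the lymphoid score as a covariate, reads recovered from the normalized table, levels without length, and leaving out mice GFP-2011 and GFP-2014 or each mouse in turn. Leaving out mice GFP-2011, GFP-2012 and GFP-2014 together, the adipocyte score as a covariate, the transcript length, and the further settings for the pathway lists were chosen after seeing the data.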

Additional observations from a re-analysis of the deposited data

Results flagged for a closer look

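In 22 groups of 6 values (8 receptor genes and 3 ratios in each group of mice), 1 held a value far from the others. The log2 CPM of Adra2b in mouse Notum-2032 was low, with a gap to its nearest neighbour of 0.637 of the whole range of that group. That mouse had 1 read of Adra2b, where the other AAV-Notum mice had 4 to 6, and it also had 0 reads of Adra2c. Chance alone gives such a value in about 1 of 20 groups.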

How the results depend on the processing

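The direction of all 6 tested receptor genes was kept in every setting but 2. With the lymphoid covariate Adrb3 was at 0.035 and Adra1a at 0.00046 (log2). Without mice GFP-2011, GFP-2012 and GFP-2014 Adrb3 was at 0.264 and Adra2a at -0.133, the log2 ratio of Adrb3 to Adra2a differed by 0.373, that of β to α2 by 0.353 and the Adrb1 share without Adrb3 by -1.57 percentage points. Each mouse left out in turn gave -0.65 to -0.30 for Adrb3, -0.91 to -0.65 for Adrb1, 0.42 to 0.95 for Adra2a, -0.53 to -0.27 for Adra1a, -1.03 to -0.36 for Adra1b and -0.41 to -0.12 for Adra1d. The number of receptor genes with an unadjusted p under 0.05 (1 in the report) was 0 with the lymphoid covariate and 0 without mice GFP-2011 and GFP-2014, and without mouse GFP-2012 as well it was 1 (Adra1b, not Adrb1). It was 1 to 2 with each mouse left out, and 2 without mouse GFP-2011 (Adra1b), mouse GFP-2022 (Adrb3) or mouse Notum-2042 (Adra1a). The adjusted count stayed at 0 in every setting. The difference in the Adrb3 share ran from -0.61 to 0.44 percentage points with each mouse left out, and was -0.612 without mouse GFP-2021, -0.0464 without mouse GFP-2022, -0.0673 without mouse Notum-2033 and -0.0505 without mouse Notum-2042. That in the Adrb1 share without Adrb3 was -3.46 without mice GFP-2011 and GFP-2014 (exact permutation p = 0.200) and ran from -5.67 to -3.73. The log2 ratio of Adrb3 to Adra2a differed by -1.995 to -1.07, that of Adrb3 to Adrb1 by 0.21 to 0.46, and that of β to α2 by -1.48 to -0.78. In the order of levels, Adra1a stood 0.89 above Adrb1 with the transcript length. Adra2c and Adra2b changed places with the recovered reads (-0.0883), without mouse GFP-2012 (-0.0192) and without mouse GFP-2014 (-0.0158), with a range of -0.02 to 0.28. Adra2a stood 0.44 to 0.94 above Adra1b.

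Over all genes, 8 had an adjusted p under 0.05, and 436 with DESeq2, 14 with RLE, 5 with at least 1 count, 4 with the lymphoid covariate, 270 with the adipocyte covariate, 1 without mice GFP-2011 and GFP-2014, 0 without GFP-2012 as well, and 1 to 158 with each mouse left out. Genes higher at an unadjusted p under 0.05 numbered 1273 with at least 1 count, 464 with the RNA integrity number, 1723 with the adipocyte covariate, 345 without both mice, 258 without the 3 and 455 to 1625 with each mouse left out. Genes lower numbered 928, 763 and 792 with the RNA integrity number, the lymphoid covariate and without both mice, 660 without the 3, and 1053 to 2138. Of the pathway genes, those higher were 1 with DESeq2, 6 with the adipocyte covariate and 0 to 9 with each mouse left out. Those lower were 4 with the RNA integrity number, 4 with the lymphoid covariate, 13 with the adipocyte covariate, 5 without both mice, 3 without the 3 and 4 to 20. An adjusted p under 0.05 was found for 1 with DESeq2 (Per1), 1 with the adipocyte covariate (Slc22a3) and 0 with each mouse left out. The cause of these shifts was not tested.

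No paired analysis was possible because the mouse numbers differ between the groups. Depth limits Adra2b and Adra2c (0 to 8 reads) and leaves Adra1b and Adra2a with under 100 reads in any mouse.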
